A study of Mus musculus with 12 samples.

Results

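ERK feedback and target genes are the 10 genes Etv1, Etv4, Etv5, Dusp4, Dusp6, Spry1, Spry2, Spry4, Phlda1 and Ccnd1, which are known as outputs of the RAS-ERK pathway. They were found by their symbols in the deposited count table, which lists 24470 genes, and all 10 passed the filter on low counts that left 15572 genes for testing. The rule names the genes by symbol and sets no threshold on a measured value, but the genes were chosen with earlier results of these data known. The libraries came from whole mouse testes at E14.5, with 3 testes pooled per library, 6 pools in each group. Control embryos carried the floxed Nr2f2 alleles without Cre (Nr2f2 f/f), and conditional knockout (cKO) embryos carried the same alleles with Wt1-CreER, a Cre recombinase expressed from Wt1 that is active only after tamoxifen. Pregnant females received tamoxifen at E11.5 and E12.5, so that both groups share the floxed alleles and, per the study's methods, the drug, and differ also in the presence of the Wt1-CreER allele. Wt1 is expressed in the precursors of the supporting and interstitial cells, and, per the study, the deletion left some interstitial cells with the receptor. Nr2f2 encodes an orphan nuclear receptor of interstitial cells, and the comparison asks which transcripts change when it is deleted before fetal Leydig cells form.

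ERK is the last kinase of a cascade that receptor tyrosine kinases switch on through RAS, RAF and MEK when they bind ligands such as fibroblast growth factors. Active ERK induces a small set of genes in many tissues. Among them are the PEA3 group of ETS transcription factors (Etv1, Etv4, Etv5), the phosphatases that remove phosphate from ERK (Dusp4, Dusp6), the Sprouty adaptors that restrain signalling upstream of ERK (Spry1, Spry2, Spry4), the pleckstrin homology-like protein Phlda1 and the G1 cyclin Ccnd1. Several of them act against the pathway that induces them, and their transcripts are therefore often read together as a sign of pathway output. Their transcription can also respond to other inputs, and Etv5 in the testis is known from Sertoli cells and germ cells.

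Promoters of 5 of the 10 genes (Etv1, Etv5, Dusp6, Spry1 and Spry2) were in the RefSeq sequence table for GRCm38.p6, the assembly also called mm10. Dusp6, Etv5 and Spry1 are shown because their transcripts differed in their response and their windows in the number of ETS core motifs. Each window holds the 250 bases before the annotated start site, 5′ to 3′ on the gene's strand. Capitals mark GGAA or its reverse complement TTCC, the core bound by ETS factors such as the Etv proteins. The windows are chr10:99262981-99263230 on the plus strand for Dusp6, chr16:22439571-22439820 on the minus strand for Etv5 and chr3:37639697-37639946 on the plus strand for Spry1.
Dusp6: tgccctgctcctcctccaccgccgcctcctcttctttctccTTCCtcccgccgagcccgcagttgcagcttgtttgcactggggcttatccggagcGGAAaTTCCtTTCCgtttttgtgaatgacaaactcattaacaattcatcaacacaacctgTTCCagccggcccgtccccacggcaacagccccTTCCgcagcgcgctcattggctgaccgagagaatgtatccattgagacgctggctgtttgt
Etv5: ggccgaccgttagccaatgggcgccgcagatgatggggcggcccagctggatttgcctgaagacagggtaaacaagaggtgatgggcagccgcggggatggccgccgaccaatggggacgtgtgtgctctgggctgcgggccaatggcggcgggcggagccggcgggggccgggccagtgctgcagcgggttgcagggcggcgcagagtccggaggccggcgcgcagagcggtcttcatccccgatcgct
Spry1: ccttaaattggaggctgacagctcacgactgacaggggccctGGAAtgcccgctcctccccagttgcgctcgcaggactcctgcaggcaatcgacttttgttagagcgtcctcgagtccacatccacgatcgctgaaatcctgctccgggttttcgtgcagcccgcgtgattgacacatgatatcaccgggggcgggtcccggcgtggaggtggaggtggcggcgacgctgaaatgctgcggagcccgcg

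Dusp6 had 6 matches to GGAA, counted on both strands, Spry2 had 3, Etv1 had 2, Spry1 had 1 and Etv5 had none. A core this short is common: 93.45% of 32851 promoter windows of the same length held it. None of the 5 windows held CCGGAA (in 12.03% of all windows), which contains the core, or TGANTCA (6.749%), TGACGTCA (1.546%), AGGTCA (14.02%) or a CArG box (1.467%), all counted on both strands. These matches describe letters in a window and are no evidence of binding.

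Read pairs assigned to genes ranged from 7044531 to 39965574 in control pools and from 7322959 to 59404778 in cKO pools, and values below are CPM, counts scaled to a common library size by TMM. Nr2f2 had 162.5 to 186 CPM in control pools and 50.2 to 119 CPM in cKO pools, with no overlap (log2 fold change -1.21, SE 0.16, edgeR quasi-likelihood adjusted p = 0.000548). Xist, a long noncoding RNA made from the inactive X in cells with an XX karyotype, was at 304 to 891 CPM in 4 libraries (control 1 and cKO 3, 5 and 6) and at 5.15 to 7.68 CPM in the other 8. Whether the testes of these 4 pools contained XX cells cannot be told from the labels, and results for the 10 genes are also given for the other 8 libraries, 5 control and 3 cKO. Defining markers of the testis were present in every library: summed levels of 6 Sertoli cell markers were 663 to 1121 CPM in control and 638 to 1121 CPM in cKO pools. Nothing in the labels says that the pools came from separate litters, so that p-values measure the spread between these pools.

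Transcripts of 7 of the 10 ERK output genes were higher in cKO testes and 0 were lower at an adjusted p under 0.05 (edgeR), against 3.28% of all 15572 genes called higher, 4.85% called lower and 8.13% called in either direction. The 7 were Etv1, Etv4, Etv5, Dusp4, Spry4, Phlda1 and Ccnd1. The log2 fold changes of the 10 genes ran from -0.21 for Spry1 to 1.02 for Ccnd1, with a median of 0.55, beside a median of 0.00 over all genes tested. At an unadjusted p under 0.05, 8 genes were higher and 1 was lower, against 12.1% and 13.2% of all genes. DESeq2 called 8 higher and 0 lower, where it called 1905 of 17827 genes in either direction. The counts by limma-voom were 6 and 0, where it called 1247 of 15572 genes. In whole-testis RNA, more cells of a type and more RNA per cell cannot be told apart, and this holds for each result below.

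**Figure D1:**
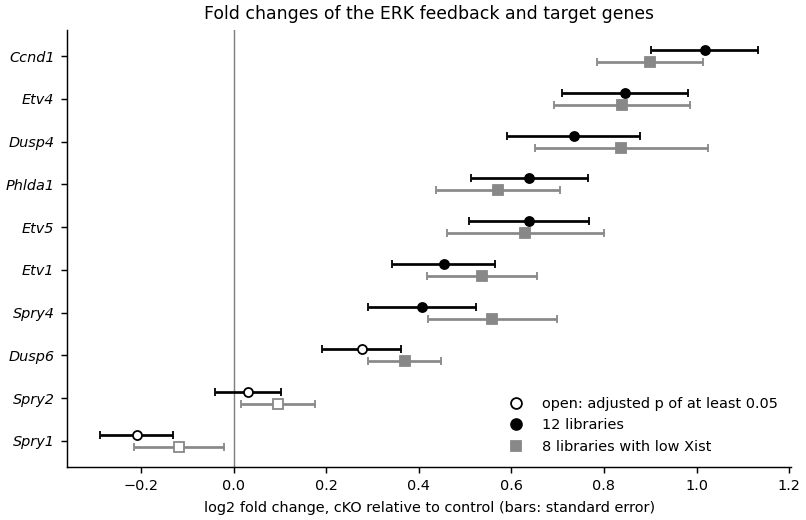
Log2 fold change (cKO against control, edgeR) of each of the 10 genes with its standard error, from all 12 libraries (circles) and from the 8 libraries with Xist under 100 CPM (squares), open where the adjusted p was at least 0.05. Spry1 lies below 0 and Spry2 next to 0 in both sets, and Ccnd1 has the largest value in both.

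In 5 of the 10 genes (Etv4, Etv5, Dusp4, Phlda1 and Ccnd1) every cKO pool was above every control pool, an ordering without overlap that 5.52% of all genes showed in one direction or the other. In the 8 libraries with low Xist, 8 of the 10 genes were called higher (all but Spry1 and Spry2), against 3.68% of all genes called higher and 7.08% called in either direction there, and the median log2 fold change over the 10 was 0.57. The groups of those 8 libraries did not overlap for the same 8 genes, beside 28.2% of all genes. That share comes from fewer libraries, 5 against 3, and from pools without high Xist, and the part of each in it was not tested.

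**Figure D2:**
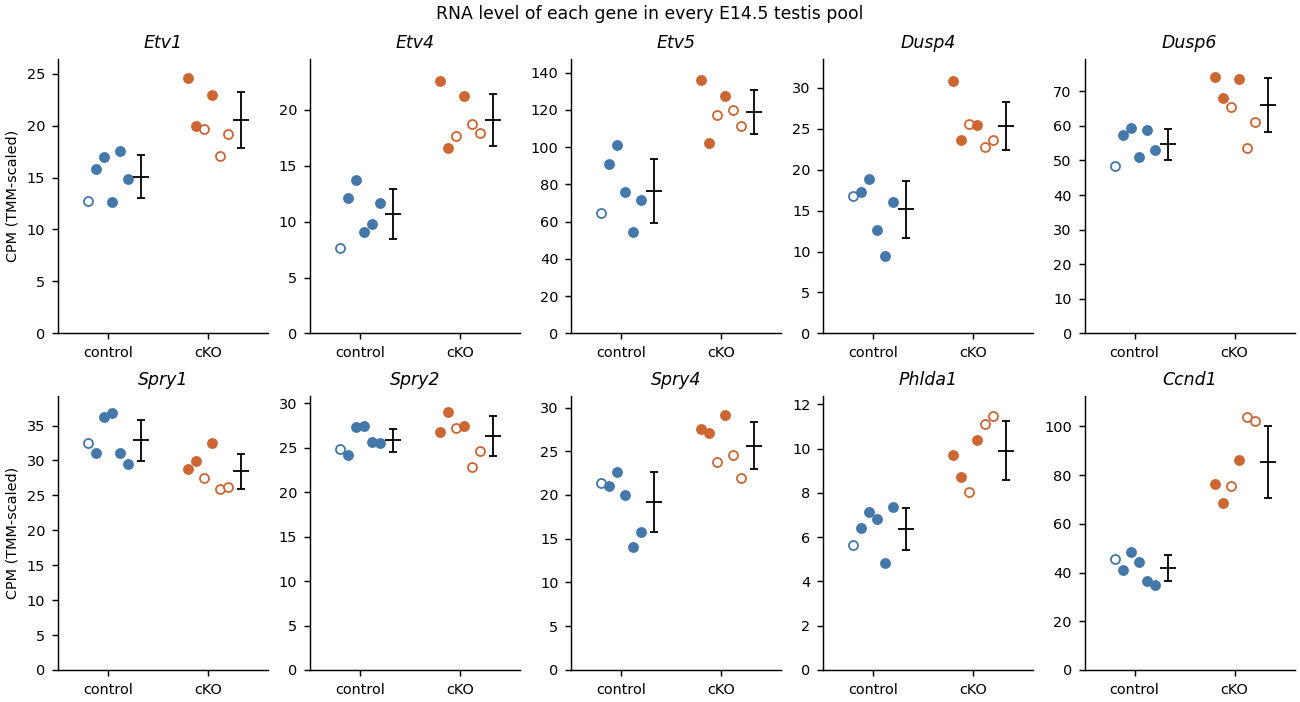
CPM of each of the 10 genes in each of the 12 pools on axes that start at 0, with open circles for libraries whose Xist is over 100 CPM and a bar for the mean and SD of each group. The groups are apart for Etv4, Etv5, Dusp4, Phlda1 and Ccnd1 and interleave for Spry1 and Spry2.

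The Etv genes encode the transcription factors through which much of the response to fibroblast growth factors runs, and all 3 were higher in cKO testes. Etv4 (Entrez Gene 18612, chr11:101769748-101785310, minus strand of mm10) ranged from 7.63 CPM through a median of 10.8 to 13.7 CPM in control pools and from 16.6 through 18.3 to 22.6 CPM in cKO pools. Its groups were clearly apart, and Etv4 rose from a mean of 10.7 ± 2.25 to 19.1 ± 2.32 CPM (SD, n = 6 pools in each group; fitted fold change 1.80, log2 fold change 0.85, SE 0.14, edgeR adjusted p = 0.00179). Etv4 gave a log2 fold change of 0.84 in the 8 libraries with low Xist (adjusted p = 0.00703).

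Etv5 (Entrez Gene 104156, chr16:22381313-22439570, minus strand) had the highest CPM of the 3, from 54.2 through a median of 73.6 to 101 CPM in control pools and from 102 through 119 to 136 CPM in cKO pools. Its groups touched but did not overlap, since control 3 lay just below cKO 2. Etv5 rose from 76.3 ± 17.2 to 119 ± 11.8 CPM (log2 fold change 0.64, SE 0.13, edgeR adjusted p = 0.00755; 0.63 and 0.0484 in the 8 libraries). Etv1 (Entrez Gene 14009, chr12:38780258-38868215, plus strand) ranged from 12.6 through 15.4 to 17.5 CPM in control pools and from 17.1 through 19.8 to 24.5 CPM in cKO pools. Only cKO 5 fell inside the control range. The rise of Etv1 was smaller (log2 fold change 0.45, SE 0.11, edgeR adjusted p = 0.0217; 0.54 and 0.0221 in the 8 libraries), and it missed the threshold without control 4 (adjusted p = 0.0525), without cKO 1 (0.0535) and without cKO 4 (0.0578).

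Dusp4 and Dusp6 encode dual-specificity phosphatases that inactivate ERK, Dusp4 in the nucleus and Dusp6 in the cytoplasm. Dusp4 (Entrez Gene 319520, chr8:34807610-34819894, plus strand) ranged from 9.41 through a median of 16.4 to 18.9 CPM in control pools and from 22.8 through 24.6 to 30.9 CPM in cKO pools. No control pool reached the lowest cKO pool, and cKO 1 stood above the other cKO pools. Dusp4 rose from a mean of 15.2 ± 3.51 to 25.3 ± 2.93 CPM (fitted fold change 1.66, log2 fold change 0.73, SE 0.14, edgeR adjusted p = 0.00595; 0.84 and 0.0226 in the 8 libraries with low Xist).

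Dusp6 (Entrez Gene 67603, chr10:99263231-99267489, plus strand), whose promoter held 6 ETS cores, ranged from 48.5 through 55.1 to 59.3 CPM in control pools and from 53.6 through 66.8 to 74.3 CPM in cKO pools. The cKO 5 pool, one of the libraries with high Xist, lay inside the control range and the other 5 lay above it. The mean of Dusp6 was 54.6 ± 4.50 CPM for control pools against 66.0 ± 7.85 CPM for cKO pools (log2 fold change 0.28, SE 0.09), which did not pass the threshold (edgeR adjusted p = 0.0617). In the 8 libraries with low Xist the groups of Dusp6 did not overlap and it was called higher (log2 fold change 0.37, adjusted p = 0.0188), as it was without cKO 5 alone (0.33, 0.0265) and without control 5 alone (0.31, 0.0492).

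The Sprouty genes encode membrane-associated adaptors that dampen receptor tyrosine kinase signalling, and only Spry4 of the 3 was called higher in cKO testes. Spry4 (Entrez Gene 24066, chr18:38586265-38601268, minus strand) ranged from 14.1 through a median of 20.5 to 22.7 CPM in control pools and from 21.9 through 25.8 to 29.1 CPM in cKO pools. Only cKO 6 fell inside the control range. Spry4 rose from 19.2 ± 3.43 to 25.6 ± 2.69 CPM (log2 fold change 0.41, SE 0.12, edgeR adjusted p = 0.0464; 0.56 and 0.0363 in the 8 libraries with low Xist). The call was near the threshold: leaving out any single library other than control 1, control 3 or cKO 6 (9 of 12 fits) lost it, with adjusted p up to 0.103, while the log2 fold change stayed between 0.34 and 0.46.

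Spry1 (Entrez Gene 24063, chr3:37639947-37644599, plus strand) ranged from 29.5 through 31.8 to 36.9 CPM in control pools and from 25.9 through 28.1 to 32.5 CPM in cKO pools. Its groups overlapped, with 4 cKO pools below all control pools, and its log2 fold change of -0.21 (SE 0.08) did not pass the threshold (edgeR adjusted p = 0.12; -0.12 and 0.427 in the 8 libraries). Spry2 (Entrez Gene 24064, chr14:105891947-105896819, minus strand) ranged from 24.2 through 25.6 to 27.5 CPM in control pools and from 22.8 through 27.0 to 29.1 CPM in cKO pools. The cKO range of Spry2 enclosed the control range (log2 fold change 0.03, SE 0.07, edgeR adjusted p = 0.813; 0.10 and 0.438 in the 8 libraries). Spry2 varied least of the 10 genes among control pools, with a coefficient of variation of 5.15%, and Dusp4 most, with 23.1%.

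Ccnd1 encodes cyclin D1, which drives entry into the cell cycle with CDK4 and CDK6, and it had the largest change of the 10 genes. Ccnd1 (Entrez Gene 12443, chr7:144929931-144939925, minus strand) ranged from 35.0 through a median of 42.8 to 48.5 CPM in control pools and from 68.4 through 81.3 to 104 CPM in cKO pools. The groups were far apart, and Ccnd1 rose from a mean of 41.9 ± 5.30 to 85.3 ± 14.8 CPM (fitted fold change 2.02, log2 fold change 1.02, SE 0.12, edgeR adjusted p = 0.000177). Within the cKO group the highest values were in cKO 5 and cKO 6, at 104 and 102 CPM, which had the least Nr2f2 (50.2 and 53.6 CPM) and are libraries with high Xist, and the lowest was in cKO 2, which had the most Nr2f2 (119 CPM). The other cKO pools did not follow this order: cKO 3 had 75.4 CPM of Ccnd1 with 75.4 CPM of Nr2f2, cKO 1 had 76.2 with 78.9 and cKO 4 had 86.3 with 78.8. A relation between Ccnd1 and Nr2f2 across pools was not tested. In the 8 libraries with low Xist the log2 fold change of Ccnd1 was 0.90 (SE 0.11, adjusted p = 0.0015).

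Phlda1 (Entrez Gene 21664, chr10:111506286-111508649, plus strand), an early response gene, had the fewest counts of the 10 genes, down to 51 in one library. It ranged from 4.82 through a median of 6.63 to 7.37 CPM in control pools and from 8.04 through 10.1 to 11.5 CPM in cKO pools. The groups of Phlda1 did not overlap, and its mean rose from 6.37 ± 0.968 to 9.91 ± 1.35 CPM (log2 fold change 0.64, SE 0.13, edgeR adjusted p = 0.00635; 0.57 and 0.0285 in the 8 libraries with low Xist).

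To compare levels between genes, CPM were divided by the length of the union of annotated exons in kb. On this scale Etv5 and Dusp6 led in control pools, at 18.6 ± 4.20 and 17.4 ± 1.44 CPM per kb, followed by Spry2 (12.4), Spry1 (11.3) and Ccnd1 (8.89). Dusp4 (5.54), Spry4 (4.03), Etv4 (3.44) and Phlda1 (2.89) were lower, and Etv1 was lowest at 1.14 CPM per kb. The ranges over control pools of neighbours in this order overlapped except between Dusp6 and Spry2, between Ccnd1 and Dusp4 and between Phlda1 and Etv1. In cKO pools Ccnd1, at 18.1 CPM per kb, stood in place 3 in place of 5, above Spry2 (12.6) and Spry1 (9.80). Etv1 has many long annotated transcripts, and with the length of its longest transcript in place of the union it had 2.30 CPM per kb and remained the lowest.

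**Figure D3:**
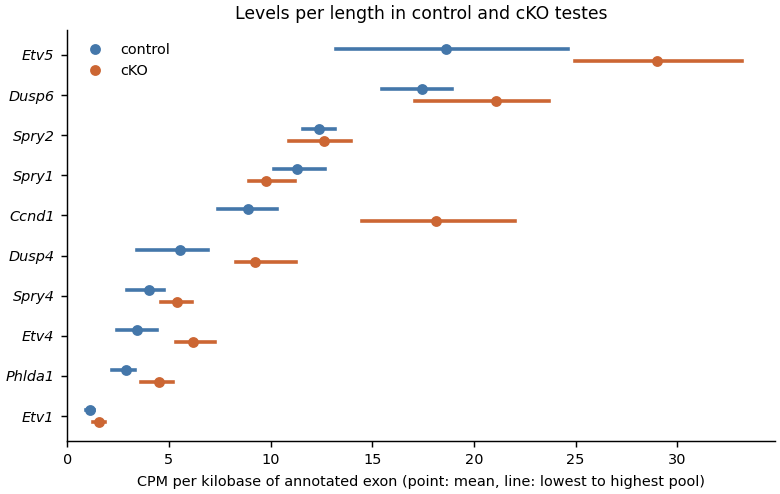
Level of each of the 10 genes in CPM per kb of exon union on a linear axis, ordered by the control mean (points are means and lines run from the lowest to the highest of the 6 pools of each group). Etv5 and Dusp6 are at the top and Etv1 at the bottom, and Ccnd1 moves from place 5 in control to place 3 in cKO pools.

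Because members of a family differed in their response, log2 ratios of counts within a library were compared between groups for 7 pairs by a two-sided exact permutation test over 924 splits, for which 0.00216 is the smallest p possible. These ratios need no scaling between libraries. They were chosen after the values had been seen, so their p-values describe the separation in these pools and are no independent support for it. The count of Spry1 relative to Spry4 fell from a mean ratio of 1.74 to 1.11 (difference -0.64 on the log2 scale, exact permutation p = 0.00216, 0.00379 after Benjamini-Hochberg adjustment over 7 pairs), and that of Spry2 relative to Spry4 from 1.37 to 1.03 (-0.41, same exact p-values). Neither ratio overlapped between groups, but for Spry2 to Spry4 the groups nearly touched. Its lowest control log2 ratio was 0.20030 and its highest cKO log2 ratio 0.20027. How often other pairs of genes separate in this way was not tested. Spry1 relative to Spry2 fell from 1.27 to 1.08 (-0.23, exact permutation p = 0.00433, adjusted 0.00606), with 5 of 6 cKO pools below all control pools.

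Dusp4 relative to Dusp6 rose from 0.271 to 0.384 (difference 0.50 on the log2 scale) and Etv4 relative to Etv1 from 0.700 to 0.931 (0.41), both without overlap and both with an exact permutation p of 0.00216 (adjusted 0.00379). For Dusp4 to Dusp6 the groups nearly touched, with a highest control log2 ratio of -1.533 and a lowest cKO log2 ratio of -1.531. The differences for Etv4 to Etv5 (0.19, exact permutation p = 0.0866, adjusted 0.101) and Etv1 to Etv5 (-0.22, 0.216, 0.216) did not pass. The latter was -0.08 without control 5 (exact permutation p = 0.431), and -0.12 in the 8 libraries with low Xist. In the 8 libraries with low Xist the differences kept their signs, and the exact permutation p over 56 splits was 0.0179 for Spry1 to Spry4, the smallest possible there, 0.0357 for Spry2 to Spry4, 0.0536 for Spry1 to Spry2 and for Etv4 to Etv1, and 0.0714 for Dusp4 to Dusp6. After adjustment over the 7 pairs none of these was under 0.0938.

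**Figure D4:**
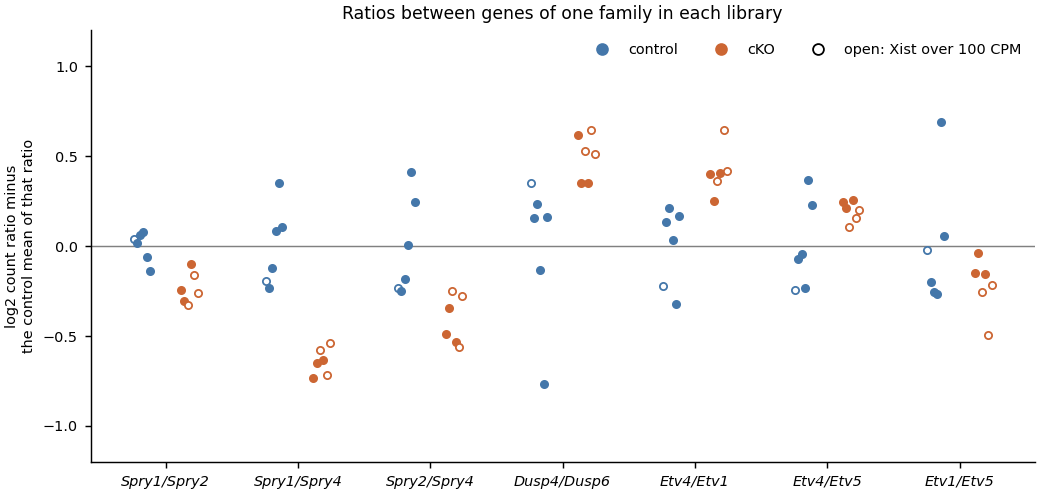
Log2 ratio of counts of pairs of genes of one family in each pool, shown minus the control mean of that ratio, with open circles for libraries whose Xist is over 100 CPM. The ratios of Spry1 to Spry4, Spry2 to Spry4, Dusp4 to Dusp6 and Etv4 to Etv1 do not overlap between the groups, and those of Etv4 to Etv5 and Etv1 to Etv5 do. The groups nearly touch for Spry2 to Spry4 and for Dusp4 to Dusp6.

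The pools did not rank alike for all 10 genes. Among control pools, control 3 had the highest value for 6 of the 10 genes and control 5 the lowest for 4 (Etv5, Dusp4, Spry4 and Phlda1). Among cKO pools, cKO 1 had the highest value for 5 (Etv1, Etv4, Etv5, Dusp4 and Dusp6) and cKO 5 the lowest for 5 (Etv1, Dusp4, Dusp6, Spry1 and Spry2). Ccnd1 thus had its highest value in cKO 5, the pool in which these other genes were lowest.

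Other genes of the pathway were taken from 4 lists, of which 74 of 76 genes could be tested. Of these 74 genes, 6 were higher and 5 lower in cKO testes, and their median log2 fold change was 0.09. Among 12 other feedback genes 2 were higher, 0 were lower, 11 had a positive log2 fold change and the median was 0.14 (4 higher and 1 lower at an unadjusted p under 0.05, 3 and 0 by DESeq2, 2 and 0 by limma-voom). Dusp5, an ERK phosphatase of the nucleus, rose from 5.15 ± 0.988 to 8.03 ± 1.52 CPM without overlap (log2 fold change 0.64, edgeR adjusted p = 0.0214), but was not called in the 8 libraries with low Xist (0.42, 0.128) or without cKO 6 (0.55, 0.0541). Spred2, which encodes a Sprouty-related inhibitor of RAS signalling, rose from 36.2 ± 4.99 to 45.4 ± 3.39 CPM, also without overlap (0.33, 0.0398; 0.41 and 0.0595 in the 8 libraries), and its call was lost in 9 of the 12 fits without 1 library. Il17rd, which encodes a membrane inhibitor of FGF receptor signalling, missed the threshold in 12 libraries (0.30, 0.0566) and was called in the 8 (0.42, 0.0363).

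Of 12 other ERK-induced genes 10 had enough counts to be tested, and 1 was higher and 0 lower, with log2 fold changes from -0.50 (Ier3, edgeR adjusted p = 0.104) to 0.61 (Fos, adjusted p = 0.163) and a median of 0.21. At an unadjusted p under 0.05, 3 were higher and 1 was lower, and DESeq2 and limma-voom each called 1 higher and 0 lower. Epha4, an ephrin receptor, rose from 19.2 ± 2.19 to 29.1 ± 2.20 CPM without overlap (log2 fold change 0.60, SE 0.09, adjusted p = 0.00089; 0.66 and 0.00479 in the 8 libraries). The 27 genes of the cascade itself, from the RAS proteins and their exchange factors to the ERK and RSK kinases, had log2 fold changes from -0.15 to 0.32 and a median of 0.12. None of the 27 was called by edgeR, DESeq2 or limma-voom, 6 were higher and 0 lower at an unadjusted p under 0.05, and the largest values were those of the ERK-activated kinase genes Rps6ka1 (0.32, edgeR adjusted p = 0.173; 0.45 and 0.126 in the 8 libraries) and Rps6ka2 (0.27, 0.176; 0.45 and 0.0692). Without control 5 the log2 fold changes were 0.21 for Rps6ka1 and 0.19 for Rps6ka2.

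The 25 ligands and receptors upstream of the cascade moved in both directions, with 3 higher, 5 lower and a median log2 fold change of -0.21 (4 higher and 12 lower at an unadjusted p under 0.05, 3 and 8 by DESeq2, 3 and 5 by limma-voom). Fgf10, a ligand of FGFR2, rose from 5.28 ± 1.18 to 10.2 ± 2.78 CPM (log2 fold change 0.94, edgeR adjusted p = 0.00834). Ret, the signalling receptor of GDNF, rose from 21.6 ± 6.22 to 38.0 ± 5.48 CPM (0.81, 0.0125), and Nrg1, a ligand of ERBB receptors, rose from 12.4 ± 1.57 to 16.8 ± 2.67 CPM (0.44, 0.0352). Fgf2 fell from 4.27 ± 0.337 to 2.44 ± 0.244 CPM (-0.82, 0.00086), Pdgfc from 39.5 ± 7.81 to 26.6 ± 2.21 CPM (-0.57, 0.00749) and Hgf, the ligand of MET, from 13.8 ± 5.13 to 7.47 ± 1.35 CPM (-0.85, 0.0237). The receptor genes Fgfr1 (-0.34, 0.0113) and Egfr (-0.27, 0.0384) were lower as well. Among the 8 libraries with low Xist the same 3 were higher, Fgf10 (1.14, 0.0032), Ret (0.88, 0.0349) and Nrg1 (0.55, 0.0079). The 3 lower there were Fgf2 (-0.73, 0.0115), Pdgfc (-0.61, 0.0424) and the receptor gene Fgfr3 (-0.70, 0.0151), which had not passed in 12 libraries (-0.31, 0.404). Fgfr1 (-0.22, 0.115), Egfr (-0.29, 0.0994) and Hgf (-0.79, 0.0636) missed the threshold there. In fits without 1 library, the call of Nrg1 was lost in 6 of 12, that of Egfr in 9 and that of Hgf in 2.

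**Figure D5:**
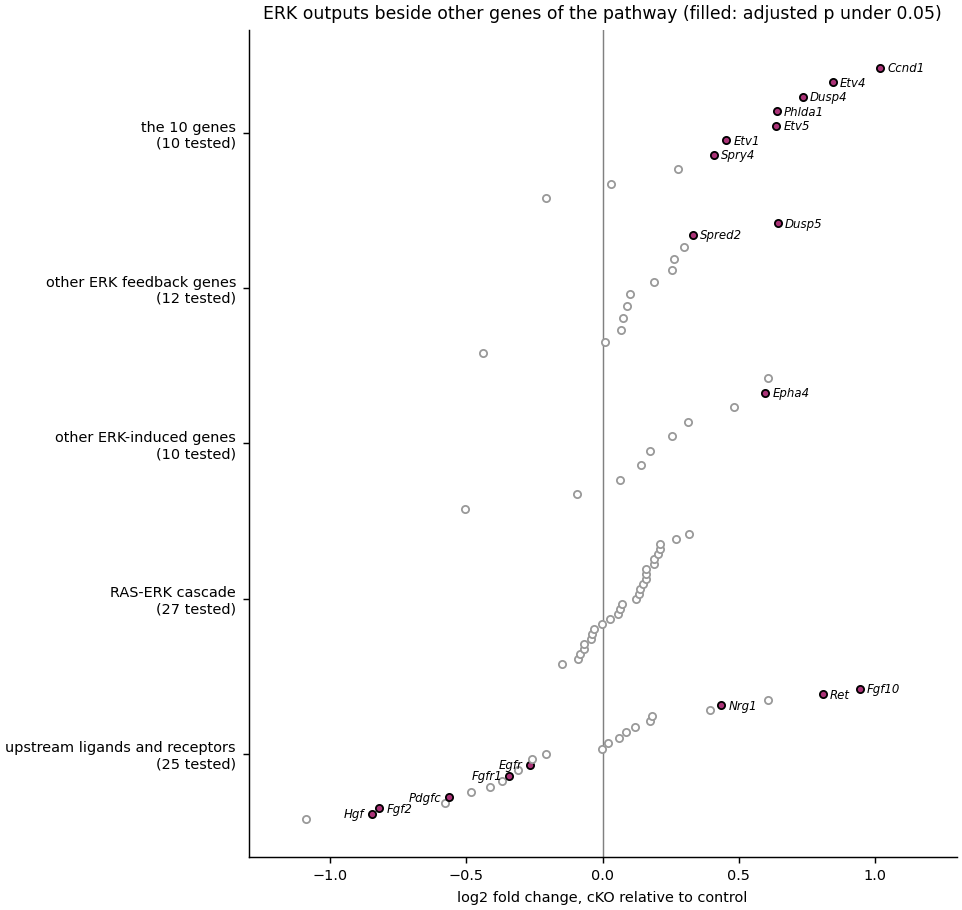
Log2 fold change (cKO against control, edgeR, 12 libraries) of the 10 ERK output genes and of each tested gene in the 4 pathway lists, with genes at an adjusted p under 0.05 filled and named. The cascade genes lie between -0.15 and 0.32, and the upstream ligands and receptors spread from -1.09 to 0.94.

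Relatives of the 10 genes outside the pathway lists gave a mixed result. Of 7 relatives 1 was higher and 0 lower (1 and 2 at an unadjusted p under 0.05, 1 and 1 by DESeq2, 1 and 0 by limma-voom). Ccnd2, another D-type cyclin gene, rose from 277 ± 17.6 to 354.0 ± 21.1 CPM without overlap (log2 fold change 0.35, SE 0.06, edgeR adjusted p = 0.00328; 0.31 and 0.0398 in the 8 libraries). Ccnd3, at 196 ± 15.8 CPM in control pools and at 167 ± 10.5 CPM after deletion, did not pass (-0.23, 0.0535; -0.17 and 0.22 in the 8 libraries).

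Markers of several cell types differed between the same pools, and their part in the results for the 10 genes was not tested. Of 5 fetal Leydig cell markers 4 were lower (sum 1561 to 2910 CPM in control and 841 to 1745 CPM in cKO pools), and of 5 interstitial markers other than the deleted gene Nr2f2, 2 were lower, Tcf21 and Wnt5a (969.8 to 1275 and 601 to 1063 CPM). All 5 contractile markers were lower (563 to 692 and 335 to 514 CPM). Macrophage markers were higher in 3 of 6 (33.2 to 47.8 and 51.5 to 64.7 CPM) and mesonephric epithelium markers in 2 of 4 tested (6.43 to 12.8 and 13.5 to 19.3 CPM), both without overlap of the sums. Both DESeq2 and limma-voom called 5 of the 6 macrophage markers higher, as many as had an unadjusted p under 0.05. Wnt9b of the mesonephric list was under 1 CPM in every library. Of 6 endothelial markers 1 was lower (320 to 457 and 320 to 390.2 CPM), and of 4 adrenal cortex markers 1 was higher (13.0 to 24.2 and 20.1 to 24.1 CPM). Over the 8 libraries with low Xist, 4 fetal Leydig cell, 2 interstitial (Nr2f2 left out) and 4 contractile markers were lower. There 2 macrophage and 1 adrenal cortex markers were higher, and none of the mesonephric epithelium or endothelium was called.

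Over all 12 libraries, no marker was called by edgeR among 6 of Sertoli cells, 6 of germ cells (1089 to 2013 CPM in control and 1504 to 1844 CPM in cKO pools), 5 of meiotic germ cells, 4 of skeletal muscle and 3 tested of neural crest and glia, and DESeq2 and limma-voom called none in these lists either. Without the libraries with high Xist, the germ cell marker Nanos2 was called higher (log2 fold change 0.37, edgeR adjusted p = 0.032). At an unadjusted p under 0.05, 4 meiotic markers were higher, 1 marker each of skeletal muscle and of neural crest and glia was lower, and none of Sertoli or germ cells passed. The 4 libraries with high Xist stood apart in meiotic germ cell markers, at 274 to 527 CPM against 99.7 to 165 CPM in the other 8. They also stood apart in ovarian markers, at 141 to 315 CPM against 66.7 to 92.8 CPM, of which 1 of 6, Wnt4, was lower over all 12 libraries. Among the 8 libraries with low Xist, Wnt4 was lower (-0.84, 0.0069). There 3 of the 6 ovarian markers were higher, Foxl2 (1.45, 0.0096), Fst (0.62, 0.0216) and Bmp2 (0.67, 0.0379). Without the 4 libraries with high Xist the fold changes of Etv1, Dusp4, Dusp6 and Spry4 were larger than with them, those of Phlda1 and Ccnd1 were smaller and those of Etv4 and Etv5 were nearly the same, and all 8 were called.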

How the data were processed

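RNA-seq of pooled E14.5 testes was deposited by the authors as one table of raw counts per gene for 12 libraries (TruSeq Stranded mRNA, paired-end reads). Per the submitters' processing notes and the study's methods, the authors trimmed reads with Trim Galore 0.6.7, aligned them to mm10 with STAR 2.5 and counted read pairs by strand on RefSeq Curated genes with featureCounts (Subread 1.5.0-p1). The deposited counts were neither normalized nor filtered. The study compared groups with DESeq2.

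The tests ran in edgeR 4.0.16 under R 4.3.3, with TMM scaling, the filterByExpr filter (count 10, total 15), glmQLFit and glmQLFTest on all 15572 genes kept, and Benjamini-Hochberg adjustment over all of them at 0.05. Standard errors (SE) were obtained by dividing each log2 fold change by the root of its F statistic. CPM used TMM-scaled library sizes. Exon lengths came from the GENCODE M21 annotation. The 2 symbols that have more than one line in the table were kept apart by position. The common biological coefficient of variation between pools was 17.0%.

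All 10 members were named, with each gene called in the pathway lists, the 2 with the largest change in a list without calls, and the targeted gene. The members and all lists were chosen with earlier results of these data known. Alternatives were other scalings and filters, DESeq2 1.42.0, limma-voom (limma 3.58.1), a replicate block, each library left out in turn, and the 8 libraries whose Xist is under 100 CPM. Simulated data with 200 changed genes among 15572 were built for the comparison of cKO with control libraries. There edgeR recovered 162 with 9 false calls, DESeq2 171 with 30 and limma-voom 159 with 10. These counts are totals, and recovery of fold changes as small as those of Etv1, Spry4, Dusp6 or Spry1 was not tested separately. Within each group, no pair of libraries agreed within sampling noise, and each library was used as 1 replicate. Expression tables from other assays of the study were not used here.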

Additional observations from a re-analysis of the deposited data

Results flagged for a closer look

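Of 82 groups of values examined (34 genes named here other than cell type markers, in CPM, and 7 family ratios, each in 6 control or 6 cKO pools), 4 had a pool far from the others, where chance alone gives about 1 in 20. Dusp4 in cKO 1 was at 30.9 CPM, while the other cKO pools lay between 22.8 and 25.6 CPM. The log2 ratio of Etv1 to Etv5 in control 5 was -1.63, while the other control pools lay between -2.59 and -2.26. Xist in control 1 was at 891 CPM, while the other control pools lay between 5.15 and 6.40 CPM. Fos in control 1 was at 1.84 CPM, while the other control pools lay between 0.651 and 1.01 CPM.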

How the results depend on the processing

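The count of ERK output genes higher in cKO testes was 7, and it lay between 5 and 8 over 21 alternatives, with 0 lower in each. It was 8 with DESeq2, with library size only and without the 4 libraries with high Xist, and from 5 to 7 when 1 library was left out (5 without control 4, cKO 1 or cKO 4). Etv4, Etv5, Dusp4, Phlda1 and Ccnd1 were called in all 21, with adjusted p up to 0.0168, 0.0484, 0.0226, 0.0302 and 0.0045, and no fold change of the 10 genes changed sign. Etv1 lost its call in 4 and Spry4 in 11 of 21, Dusp6 gained one in 5, and Spry1 (-0.25 to -0.12) and Spry2 (0.00 to 0.10) were called in none.

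Pathway genes called lower, 5 in all 12 libraries, were 8 with DESeq2, 3 without the 4 libraries with high Xist and 3 to 8 when 1 library was left out (3 without control 6 or cKO 3, 8 without cKO 2). Pathway genes called higher, 6 in all 12 libraries, were 4 to 14 when 1 library was left out, with 14 without control 1. Genes called over the whole table, 1266, were 1905 with DESeq2 and 816 to 3106 when 1 library was left out, with 816 without cKO 4 and 3106 without control 1. The cause was not tested. Of the ratios, Etv4 to Etv5 passed without control 5 (exact permutation p = 0.0130) and without control 6 (0.0476).

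Replicate numbers did not pair the pools: same-numbered pools correlated from -0.33 to 0.24 in their deviations from the group means, and no control pool correlated best with its own number. With the replicate number as a block, 6 of the 10 genes were higher, 0 were lower, 6 pathway genes were higher and 5 lower, and 931 genes were called in all. The pathway genes were not the same: 7 calls were shared, Dusp5 (adjusted p = 0.0537), Spred2 (0.0514), Egfr (0.0854) and Hgf (0.0813) lost theirs and Il17rd (0.0485), Egr1 (0.0119), Fgfr4 (0.0325) and Pdgfrb (0.00921) gained one. Among the 10 genes Etv1 was the one that lost its call there (log2 fold change 0.46, edgeR adjusted p = 0.0768). In the library where each gene had the fewest counts, counting error alone was 14.0% for Phlda1, 7.72% for Spry2 and 4.50% for Etv5. How far depth limits the calls was not tested.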
